A study of Mus musculus with 6 samples.

Results

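Small RNA reads from LINE-1 (L1) retrotransposons were compared directly between mouse embryonic stem cells (ESCs) depleted of TET1 and ESCs depleted of TET2. The comparison rests on 4 of the 6 small RNA-seq libraries of the study, namely shTet1 replicates 1 and 2 and shTet2 replicates 1 and 2. The other 2 libraries, from cells with the non-targeting control shScr, entered no test and are given as background. All cells were of the E14 line, an established ESC line of 129/Ola background, grown in serum and LIF on gelatin without feeders. Each shRNA was delivered in a pLKO.1 lentiviral vector. Per the labels, puromycin selection at 1 µg/ml began 24 h after infection and cells were collected after 3 days of it. The study's methods state a higher dose, another antibiotic as an alternative and a wider range of days, and which applies to these libraries is not settled here. Knockdown could not be checked in these files, since only reads within L1 copies are listed and Tet1 and Tet2 transcripts are not among them. Nor do the labels say whether the 2 libraries of a condition came from separate transductions, so that the tests measure the spread between libraries, which may be technical.

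TET1 and TET2 are dioxygenases that oxidise 5-methylcytosine, the first step of active DNA demethylation, and TET1 in particular binds CpG-rich promoters in ESCs. L1 elements are autonomous retrotransposons that carry a promoter and 5′ untranslated region, a pair of open reading frames and a 3′ end with a poly(A) tail. The mouse L1Md_T, L1Md_A and L1Md_Gf classes are evolutionarily young and hold mobile copies, whereas L1Md_F, L1Md_F2 and L1Md_F3 are older, and L1_Mus, L1VL1 and Lx copies older still. Small RNAs of L1 origin may be Dicer products of double-stranded RNA, Piwi-interacting RNAs (piRNAs), which tend to begin with U, or fragments of longer transcripts, and length, strand and first base are the usual means of describing them.

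Reads in 3 copies were left out: an L1Md_T copy at chr13:9831267-9837911 and L1Md_F2 copies at chr1:46127905-46134327 and chr1:102073553-102078935 (mm9). These 3 copies held 73.7% and 82.9% of the listed reads in shTet1 and 74.2% and 84.3% in shTet2. The reads left numbered 3043 and 4027 in shTet1 replicates 1 and 2, 17888 and 5472 in shTet2 replicates 1 and 2, and 24135 and 22435 in shScr. In the 4 knockdown libraries they amounted to 30430 reads in 10354 copies of 33 classes. Both shTet2 libraries thus held more reads than either shTet1 library, with a log2 ratio of 1.72. The files give no library total, so sequencing depth and the amount of L1-derived RNA cannot be told apart in this ratio. All further values are shares of a library's reads outside the 3 copies. A share for which no read was listed allows up to 0.0986% and 0.0745% in shTet1, and up to 0.0168% and 0.0548% in shTet2 (3 reads). With 2 libraries against 2, the smallest p an exact two-sided permutation test can give is 0.333, so no single measure could pass a threshold of 0.05.

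The sequences that most affected strand and class were a family of 18-nt reads. The family was defined as reads of 15 to 20 nt within 2 mismatches of a common centre, the second read listed here. Related reads with more mismatches stay outside it. The 5 most frequent members in the knockdown libraries are shown beneath a stretch of the genome that lies outside the listed L1 copies, at chr17:39983298-39983315 (plus strand) and chr16:18533406-18533423 (minus strand) of mm9. Capitals mark the bases that differ from this stretch.

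Genome stretch: tacctggttgatcctgcc
Family read 1: tacAtggttgatcctgcA
Family read 2: tacAAggttgatcctgcc
Family read 3: tacAAggttgatccAgcc
Family read 4: tacAtggttgatcctgcc
Family read 5: taccAggttgatcctgcc

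These reads were listed 657, 390, 351, 306 and 240 times in the 4 knockdown libraries. Family read 2 occurs at 17 places in the genome, 11 of them in listed L1 copies, where it is antisense to the copy. Read 1 and reads 3 to 5 match no place in the genome at every base. The genome stretch itself was listed 0 times as a read. Of 19 related 18-nt sequences with at least 10 reads each, 8 lie within 2 mismatches of it, and these hold 1881 of the 2560 reads of the 19. Family read 2, which does occur in listed copies, is closer to more of them, with 15 sequences and 2315 reads within 2 mismatches. The stretch shown was chosen only among genome stretches with no place in listed copies. As background, mature 18S ribosomal RNA of vertebrates begins with the bases of this stretch. Whether the family came from that RNA was not tested.

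The family made up 5.85% and 2.41% of reads in shTet1, 13.1% and 2.54% in shTet2 and 3.37% and 3.16% in shScr. Thus shTet2 replicate 1 was the highest library, whereas shTet2 replicate 2 lay close to shTet1 replicate 2 and the groups overlapped. Between 96.9% and 98.9% of family reads were antisense in each knockdown library, and 42.6% of all family reads fell in L1Md_F.

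Reads near the 5′ end of the copy took a larger share in both shTet1 libraries, by an amount close to the gap between the 2 shTet1 libraries themselves. Reads whose midpoint lay within 1 kb of the 5′ end of the copy made up 40.8% of reads in shTet1 replicate 1 (95% Wilson interval 39.1 to 42.6) and 36.7% in replicate 2 (35.2 to 38.2). In shTet2 they made up 34.5% (33.8 to 35.2) and 33.8% (32.6 to 35.1), and in shScr 32.4% and 33.6%. Both shTet1 libraries lay above both shTet2 libraries. The intervals cover counting error only, and those of the 2 groups lay apart by a narrow margin. The difference of the means, shTet2 minus shTet1, was -4.62 percentage points (38.8% ± 2.93 against 34.2% ± 0.438, SD, n = 2 each; exact permutation p = 0.333). Within replicate numbers it was -6.38 for replicate 1 and -2.86 for replicate 2. The median distance from the 5′ end was 1491 and 1709 bp in shTet1 and 2230 and 1912 bp in shTet2, again without overlap.

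This difference kept its sign under every alternative tried, but its separation did not. With reads of the same copy, position, strand and length counted once it was -2.86 points, without the 18-nt family -3.30, among reads of 18 to 32 nt -4.75 and in the first 500 bp -2.89, and in each of these the groups overlapped. With no copy left out it was -1.42, also with overlap.

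**Figure D1:**
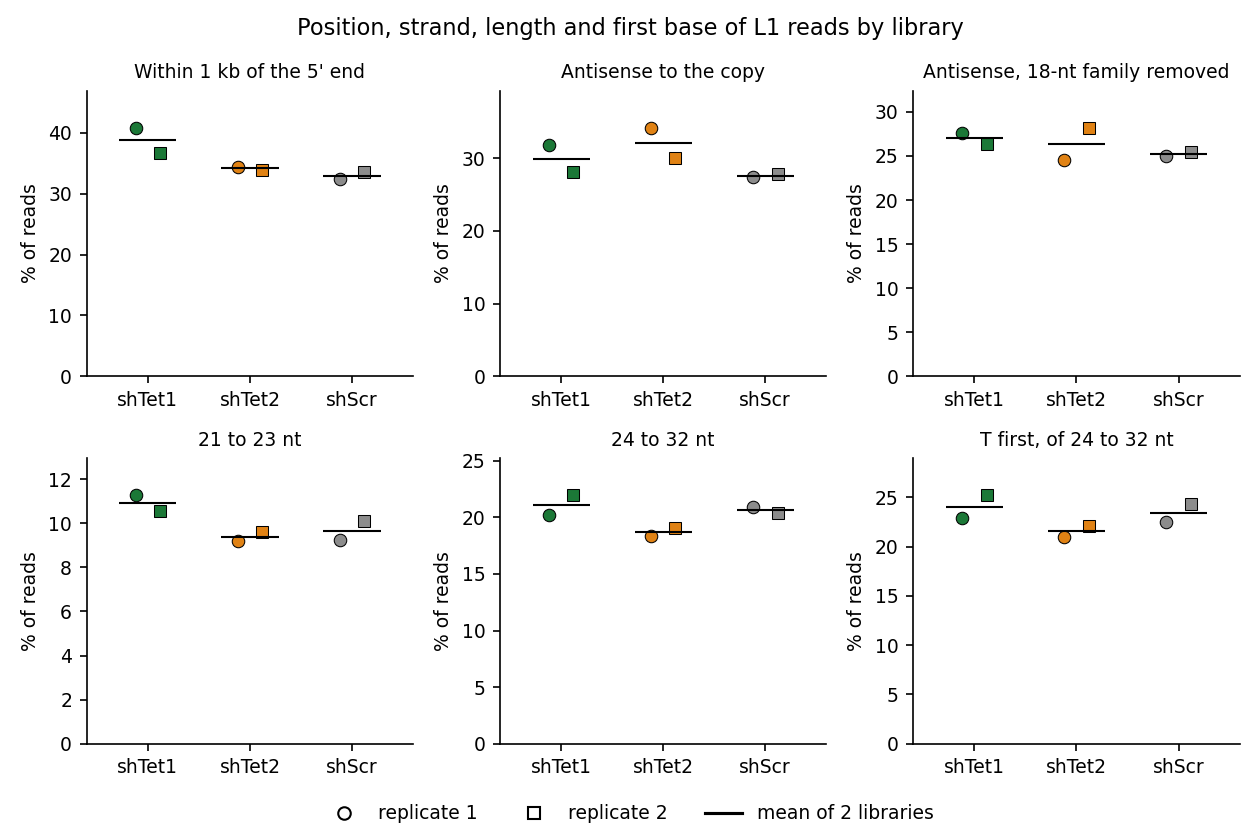
Each panel gives the percentage of a library's reads outside the 3 copies (y axis, from 0) for the 2 shTet1, 2 shTet2 and 2 shScr libraries; circles are replicate 1, squares replicate 2 and bars the mean. The share within 1 kb of the 5′ end, the shares of 21 to 23 nt and 24 to 32 nt and the share of 24- to 32-nt reads beginning with T were higher in both shTet1 libraries, while the antisense shares overlapped with and without the 18-nt family.

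Along the copy, the windows of sense reads that separated the knockdowns by most percentage points lay at 500 to 1500 bp. Sense reads at 500 to 1000 bp were 10.3% and 10.1% of reads in shTet1 and 8.54% and 8.72% in shTet2. At 1000 to 1500 bp they were 7.07% and 7.03% against 6.13% and 5.99%. Both windows were higher in both shTet1 libraries, whereas the first 500 bp (18.7% and 15.4% against 15.7% and 13.9%) overlapped. Further along, sense reads at 2500 to 3000 bp (3.55% and 4.20% against 4.27% and 5.19%) and at 5500 to 6000 bp (1.05% and 0.919% against 1.43% and 1.53%) were higher in both shTet2 libraries. So were the windows at 6000 to 6500 bp (0.493% and 0.422% against 0.498% and 0.621%) and 6500 to 7000 bp (0.920% and 0.770% against 1.97% and 1.26%), the latter being the larger change as a ratio. Antisense reads showed a peak at 4000 to 4500 bp, where most of the 18-nt family was placed, of 6.18% and 2.91% in shTet1 and 11.5% and 3.18% in shTet2.

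**Figure D2:**
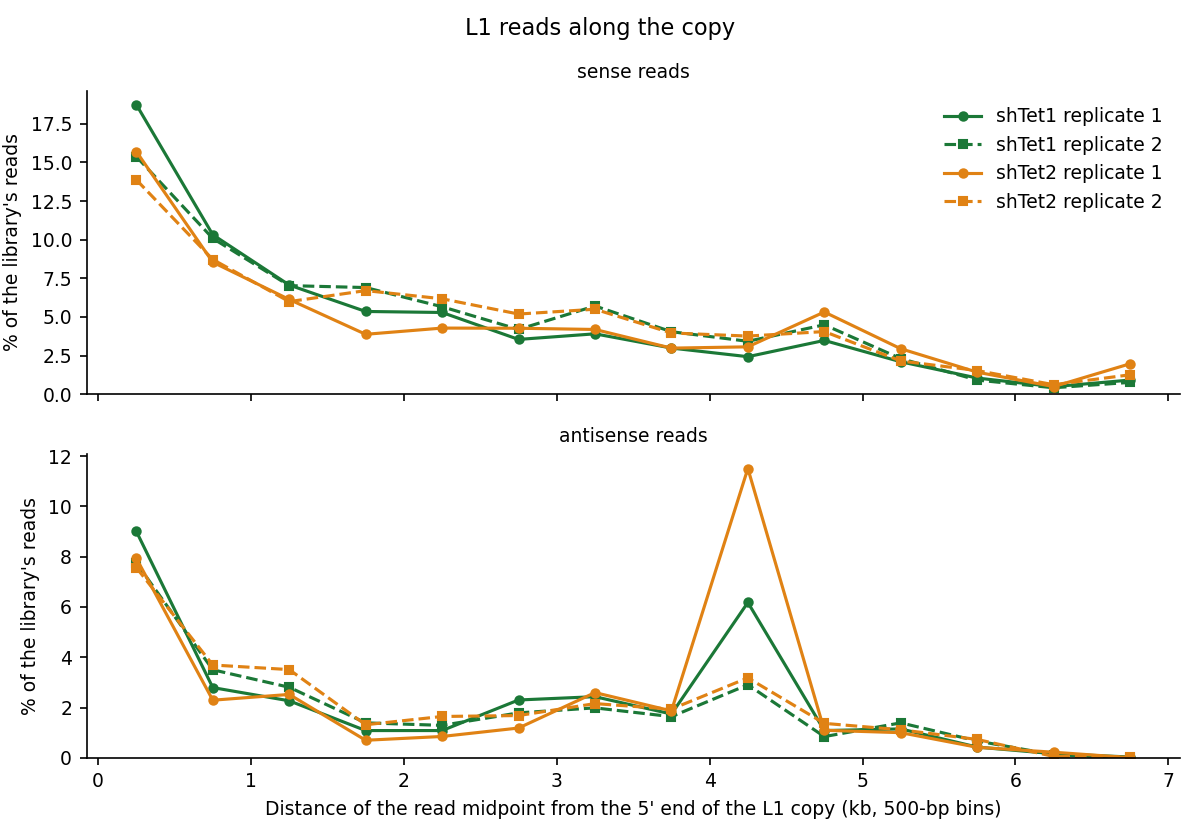
Percentage of each library's reads (y axis) by distance of the read midpoint from the 5′ end of the copy in 500-bp bins (x axis, kb), for sense reads (top) and antisense reads (bottom); solid lines are replicate 1 and dashed lines replicate 2. Sense reads are most frequent near the 5′ end, and the antisense peak at 4000 to 4500 bp is largest in shTet2 replicate 1 (11.5%).

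By class, the 5′ difference was seen in the young classes as a group, with 47.6% and 42.6% of their reads within 1 kb of the 5′ end in shTet1 and 41.5% and 39.5% in shTet2. In L1Md_A the shares were 50.3% and 48.5% against 46.3% and 41.2%, and in L1Md_F3 37.0% and 33.8% against 25.3% and 28.2%, both without overlap. Of the 867 L1Md_F3 reads in shTet2 replicate 1, however, 134 were antisense at 3000 to 3500 bp and 224 antisense at 4000 to 4500 bp. Family reads made up 81.1% and 67.2% of these windows over the 4 libraries, and reads placed there lower the 5′ share. The L1Md_F3 5′ share without the family was not computed. L1Md_Gf gave 53.8% and 47.2% against 44.1% and 41.1%. However, the first of these L1Md_Gf values rests on 14 of 26 reads, with a 95% Wilson interval of 35.5 to 71.2. In L1Md_T, the class with most reads, the shares were 45.4% and 37.1% in shTet1 and 37.7% and 38.2% in shTet2, so that the knockdowns had opposite orders in the 2 replicate numbers. L1Md_F2 did not separate either (27.0% and 19.9% against 28.7% and 20.9%).

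**Figure D3:**
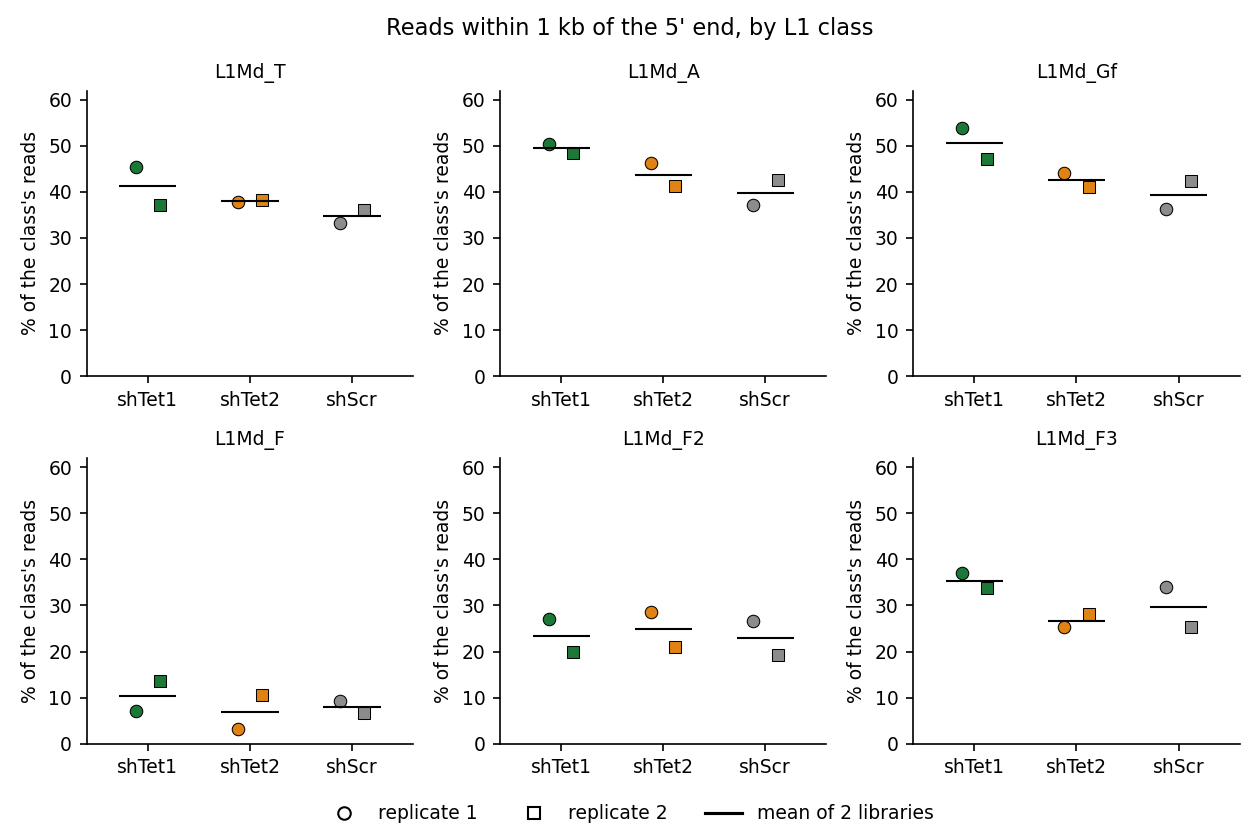
Percentage of a class's reads that lay within 1 kb of the 5′ end of the copy (y axis, from 0) in each library, for 6 L1 classes; circles are replicate 1, squares replicate 2 and bars the mean. Both shTet1 libraries lie above both shTet2 libraries in L1Md_A, L1Md_Gf and L1Md_F3, and the groups overlap in L1Md_T, L1Md_F and L1Md_F2.

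The share of reads antisense to the copy was 31.8% and 28.1% in shTet1, 34.2% and 29.99% in shTet2 and 27.5% and 27.8% in shScr. Replicate 1 was the higher library of each knockdown and the groups overlapped (difference 2.16 points, exact permutation p = 0.667). Without the 18-nt family the shares were 27.6% and 26.4% in shTet1 and 24.5% and 28.2% in shTet2, and the difference turned to -0.653 points. Its sign also turned among reads counted once (-1.70). The shares without the family still hold related antisense reads outside its definition. An example is read D below, with 10 and 7 reads in shTet1 and 84 and 25 in shTet2. Among reads of 15 to 20 nt, the lengths of the family, antisense reads made up 35.3% and 40.3% in shTet1 and 49.1% and 41.6% in shTet2. Among 24- to 32-nt reads they made up 28.9% and 26.1% against 21.9% and 25.7%, so that the order of the knockdowns was opposite in these length ranges. In L1Md_T the antisense share was 32.2% and 31.2% against 30.9% and 30.1%, and in L1Md_A 15.2% and 15.6% against 14.8% and 17.3%.

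Read length differed more between replicate numbers than between knockdowns. The mean length was 23.9 and 29.1 nt in shTet1 and 25.57 and 29.997 nt in shTet2, and replicate 1 was the shorter library of both. Short reads, of 15 to 20 nt, were 53.2% and 34.3% of the total in shTet1 against 51.4% and 36.1% in shTet2. Those of 33 to 50 nt were 12.7% and 26.4% against 16.5% and 25.1%. In shScr the order was the other way, with mean lengths of 31.05 and 29.37 nt. Within replicate numbers, the mean length of shTet2 exceeded that of shTet1 by 1.70 and 0.895 nt.

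Reads in the 2 length ranges usually examined for small interfering RNAs and piRNAs took slightly larger shares in shTet1. Reads of 21 to 23 nt made up 11.3% and 10.6% of the shTet1 libraries, 9.20% and 9.59% of the shTet2 libraries and 9.23% and 10.1% in shScr. The difference was -1.52 points (within replicate numbers -2.08 and -0.959). Reads of 24 to 32 nt made up 20.2% and 22.0% in shTet1, 18.3% and 19.1% in shTet2 and 20.9% and 20.4% in shScr, a difference of -2.38 points (within replicate numbers -1.88 and -2.87). Neither measure overlapped between knockdowns (exact permutation p = 0.333 for each), but both changed sign when no copy was left out, to 0.0953 and 0.932 points. With reads counted once, both overlapped: the 21- to 23-nt shares were 12.6% and 11.2% against 12.2% and 10.4%, and the 24- to 32-nt shares were 22.7% and 23.3% against 24.3% and 20.7%, a mean difference of -0.517 points with opposite signs in the 2 replicate numbers (1.66 and -2.70). Among reads matching the genome at every base the 24- to 32-nt groups overlapped as well (replicate 1 difference 0.683). At 22 nt, antisense reads made up 1.41% and 1.37% in shTet1 and 0.878% and 1.24% in shTet2, more than at 21 nt (1.05% and 0.944% against 0.671% and 0.969%) or 23 nt (0.887% and 0.993% against 0.794% and 0.658%) in each library, a pattern that was not tested. In L1Md_T, 24- to 32-nt reads made up 23.1% and 23.8% against 20.4% and 20.6%. In L1Md_A they made up 22.9% and 24.7% against 25.1% and 21.6% and the groups overlapped.

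**Figure D4:**
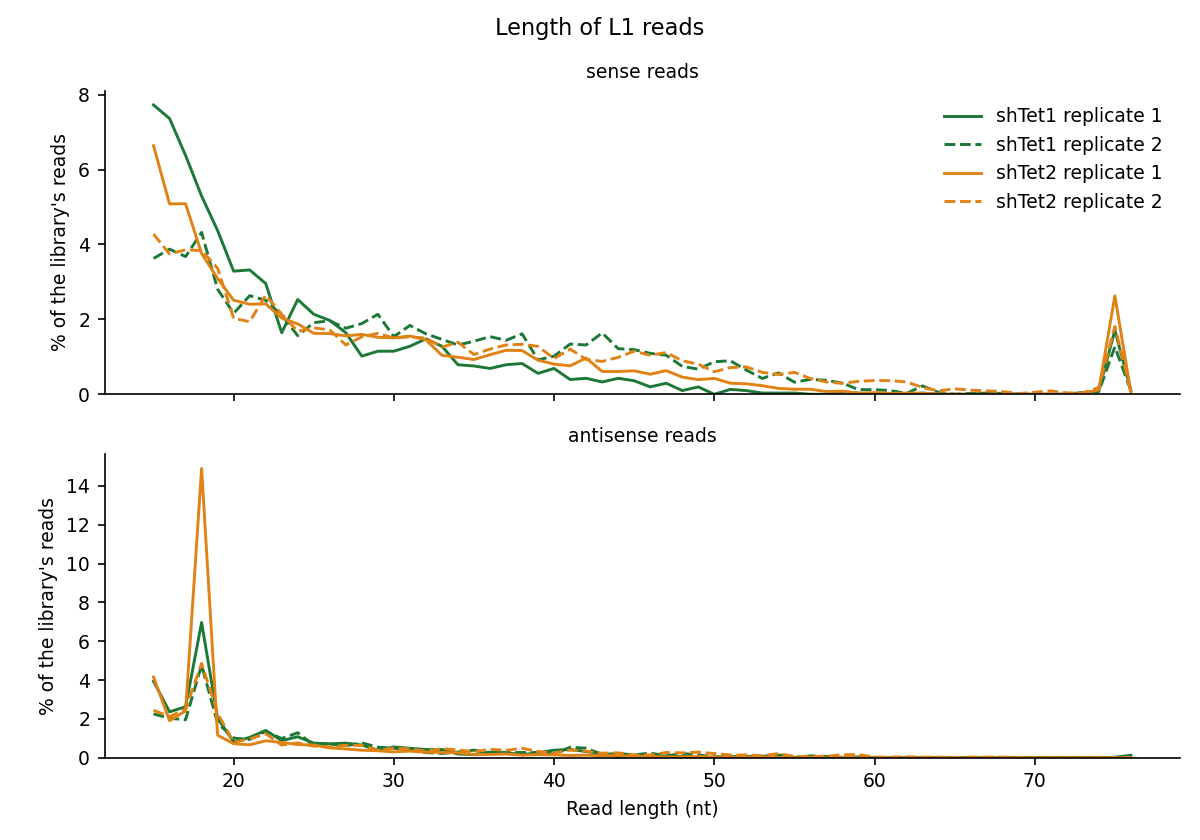
Percentage of each library's reads (y axis) at each read length in nt (x axis), for sense reads (top) and antisense reads (bottom); solid lines are replicate 1 and dashed lines replicate 2. The antisense peak at 18 nt is highest in shTet2 replicate 1, and antisense reads have a small local maximum at 22 nt in all 4 libraries.

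Among 24- to 32-nt reads, those beginning with T (U in the RNA) made up 22.9% and 25.2% in shTet1, 20.98% and 22.1% in shTet2 and 22.5% and 24.3% in shScr. The difference was -2.52 points (exact permutation p = 0.333), and within replicate numbers -1.94 and -3.10. Antisense reads of this length began with T more often than sense reads in every knockdown library, with 30.3% and 42.4% in shTet1 and 29.0% and 35.4% in shTet2 for antisense, and 19.9% and 19.1% against 18.7% and 17.5% for sense. The same held in shScr (37.0% and 38.9% for antisense, 17.8% and 19.8% for sense). Sense reads of this length most often began with A (39.1% and 47.8% in shTet1, 43.4% and 47.4% in shTet2). The cause of the contrast between strands was not tested.

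Class composition was tested with limma across the 16 classes that reached 10 reads in 2 or more libraries. None passed an adjusted p of 0.05 (0% of 16), and 1 class had an unadjusted p under 0.05 (6.25%). This was L1Md_F, with 3.25% and 1.47% of reads in shTet1 and 6.45% and 1.72% in shTet2 (log2 difference 1.08, SE 0.42, adjusted p = 0.297 by limma). The difference turned to -0.41 without shTet2 replicate 1 and to -0.04 with reads counted once. Of the 1406 L1Md_F reads in the 4 libraries, 979 lay in 1 copy at chr19:14185248-14190394 (60 and 24 in shTet1, 849 and 46 in shTet2). All 979 were of the 18-nt family. Without the family, L1Md_F made up 0.873% and 0.738% in shTet1 and 0.907% and 0.675% in shTet2.

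L1Md_A made up 29.9% and 34.0% in shTet1 and 27.8% and 29.3% in shTet2 (log2 difference -0.19, SE 0.10, adjusted p = 0.458 by limma). L1Md_F3 made up 3.29% and 3.53% against 4.85% and 4.35% (log2 difference 0.48, SE 0.26). L1Md_F2 made up 13.9% and 12.1% against 14.6% and 13.9%. These 3 classes did not overlap between the groups, as was the case for 5 of the 16 classes (31.2%). For L1Md_A this did not hold with reads counted once (33.01% and 36.1% against 35.5% and 31.6%), among exact matches (34.2% and 37.2% against 34.6% and 31.4%) or without the 18-nt family (31.17% and 34.8% against 31.19% and 29.9%), and in each the 2 replicate numbers gave opposite signs. L1Md_F2 also overlapped with reads counted once (13.5% and 12.1% against 13.2% and 14.001%). L1Md_F3 kept apart in these 3 settings and overlapped with no copy left out. L1Md_T made up 39.3% and 37.2% against 36.7% and 38.5%, and L1Md_Gf 0.854% and 0.894% against 0.799% and 1.02%. Both overlapped, with log2 differences of -0.02 (SE 0.09) and 0.11 (SE 0.36). Among older classes, the log2 differences were -0.21 (SE 0.28) for L1_Mus1, -0.11 (SE 0.26) for L1_Mus3 and -0.21 (SE 0.25) for L1_Mus2. The young classes together took 70.0% and 72.1% in shTet1 and 65.4% and 68.8% in shTet2, against 71.9% and 71.0% in shScr. This combined share was not computed with reads counted once, where the L1Md_T and L1Md_A shares each overlapped.

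**Figure D5:**
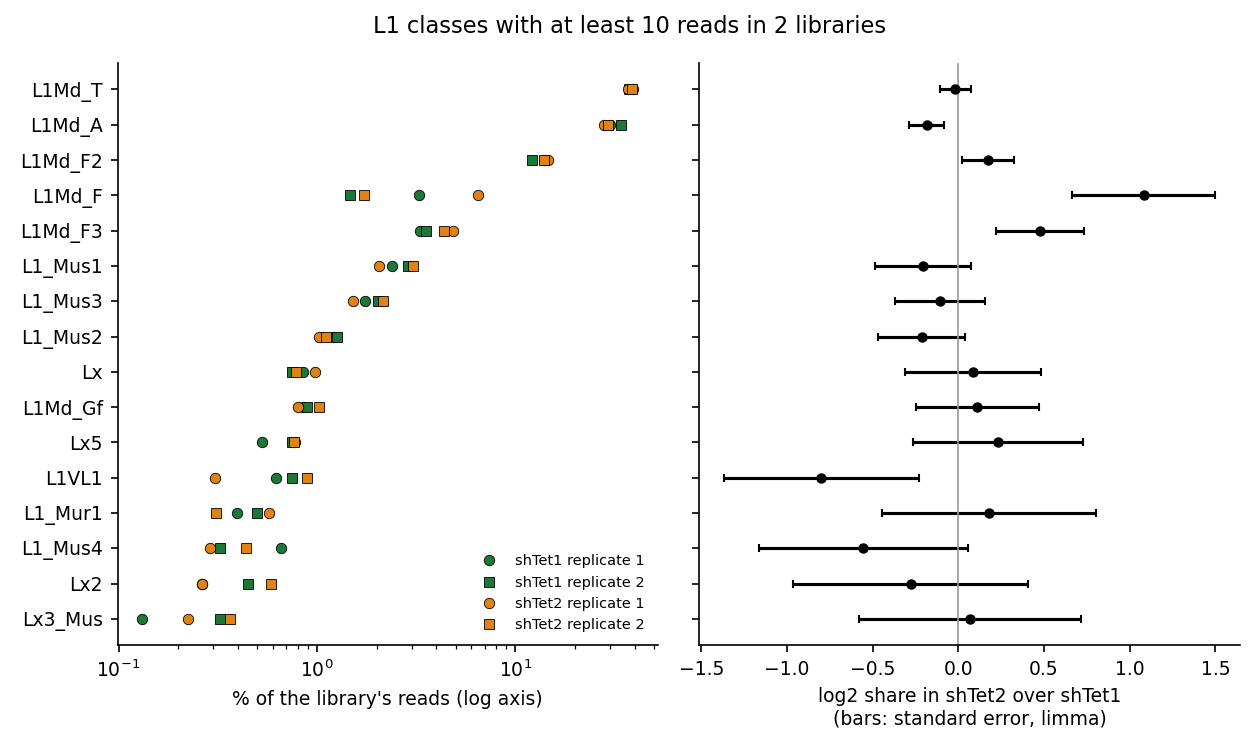
Left, percentage of each knockdown library's reads in 16 L1 classes (x axis, log scale), with circles for replicate 1 and squares for replicate 2. Right, log2 share in shTet2 over shTet1 with its standard error from limma; the highest value is that of L1Md_F (1.08), whose groups overlap.

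Splitting each class by 500-bp position and strand gave 94 bins with enough reads. None passed the adjusted threshold, 3 had an unadjusted p under 0.05 (3.19%), and 22 did not overlap between the groups (23.4%), 8 of them higher in shTet1 (8.51%) and 14 higher in shTet2 (14.9%). These counts by direction are partly set by the filter, since a bin could pass on the larger shTet2 libraries alone. Sense reads at 2500 to 3000 bp of L1Md_F3 (2 and 8 reads against 38 and 16) did so. Sense reads in the first 500 bp of L1Md_A made up 8.45% and 8.37% of reads in shTet1, 6.89% and 6.07% in shTet2 and 5.28% and 6.20% in shScr (log2 difference -0.37, SE 0.18, adjusted p = 0.882 by limma). These reads were placed in 1294 copies, with reads of several equal hits placed at random, and none belonged to the 18-nt family. The next bins, at 500 to 1000 bp (4.70% and 5.19% against 4.04% and 3.56%) and 1000 to 1500 bp (2.56% and 2.96% against 2.14% and 2.07%), were likewise higher in both shTet1 libraries. As an example of reads from this region, the most frequent of at most 30 nt in the first bin is shown. It occurs at 2210 places in the genome, 1933 of them in listed copies, so its reads cannot be tied to single copies. In the 4 libraries it was listed only 1, 1, 7 and 1 times.

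L1Md_A 5′ sense read: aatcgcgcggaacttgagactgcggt

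The bins with the smallest unadjusted p included several that rest on few sequences. Antisense reads at 4000 to 4500 bp of L1Md_F (2.43% and 0.770% against 5.67% and 1.13%, log2 difference 1.63, SE 0.66) were family reads in 99.4%. Those at the same position of L1Md_F3 (0.394% and 0.223% against 1.25% and 0.311%, log2 difference 1.49, SE 0.77) were so in 67.2%. Sense reads at 6500 to 7000 bp of L1Md_T, towards the 3′ end, made up 0.822% and 0.745% in shTet1, 1.90% and 1.17% in shTet2 and 0.800% and 1.52% in shScr (log2 difference 1.11, SE 0.44). Of these, 96.9% were at least 80% A or 80% T. Higher in shTet1 were antisense reads at 5000 to 5500 bp of L1_Mus1 (0.263% and 0.571% against 0.0671% and 0.329%, log2 difference -1.99, SE 0.76) and at 3000 to 3500 bp of L1VL1 (0.394% and 0.273% against 0.0894% and 0.292%, log2 difference -1.41, SE 0.74). Both of these overlapped.

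Of single read sequences, 16 had enough reads to be tested by limma, and none passed an adjusted or an unadjusted p of 0.05 (0%). The groups did not overlap for 2 of them (12.5%). The reads shown are those 2 (C and D), a pair in which one contains the other (A and B), 2 found almost entirely in replicate 1 (E and F) and 1 from L1VL1 (G). Capitals mark the stretch shared by the first 2 reads, and in the fourth the base that differs from the genome stretch given above.

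Read A: AGGATCACAGAAAAAG
Read B: cAGGATCACAGAAAAAG
Read C: attactctgagacct
Read D: tacctggttgatcctgT
Read E: tccggggctgcacgcgt
Read F: tctcgcgccgggccg
Read G: atttcggttgggaca

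Read A was listed 28 and 23 times in shTet1 and 62 and 45 times in shTet2, and read B 9 and 32 against 39 and 28 times. Since read B contains read A, every place of B is also a place of A. Read A occurs at 32 places in the genome, 4 of them in listed copies, and read B at 25, 2 of them in listed copies. Their log2 differences were -0.55 (SE 1.30) and -0.58 (SE 1.205), and neither separated the groups as a share of reads. Read C was listed 15 and 27 times against 131 and 61 (0.493% and 0.670% against 0.732% and 1.11%), and read D 10 and 7 times against 84 and 25 (0.329% and 0.174% against 0.470% and 0.457%). Both were higher in both shTet2 libraries, with log2 differences of 0.65 (SE 1.21) and 1.09 (SE 1.58). Read E was listed 22 and 0 times in shTet1, 181 and 0 times in shTet2 and 168 and 4 times in shScr. Read F was listed 20 and 0 times, 189 and 1 times and 257 and 2 times. Reads E and F were therefore found almost entirely in replicate 1 of all 3 conditions, and neither matches the genome exactly at any place. Read G was listed 7, 6, 14 and 14 times in shTet1 replicates 1 and 2 and shTet2 replicates 1 and 2 (log2 difference -0.81, SE 2.20). Of the family reads, read 5 was listed 15, 4, 212 and 9 times (log2 difference 1.44, SE 1.78) and read 1 43, 18, 567 and 29 times in the same order, so that both were highest in shTet2 replicate 1.

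Single copies were tested that had 10 or more reads in 2 or more libraries, which left 29. None passed the adjusted threshold in limma, 2 had an unadjusted p under 0.05 (6.9%), and 5 did not overlap (17.2%), all of them higher in shTet2. That shared direction is partly set by the filter, since shTet2 held more reads and a copy could pass on the shTet2 libraries alone. Among these 5, the copies at chrX:125293823-125300228 (3 and 5 against 24 and 14 reads) and chr5:87615560-87620643 (3 and 5 against 23 and 12) did so. Read C made up 89.1% and 90.7% of their reads, so these copies repeat the difference of that sequence. Bowtie2 places a read with several equal hits at random, so a read in a copy need not have come from it. The L1Md_T copy at chr10:105524900-105531249, in no annotated gene, held 32, 1, 261 and 1 reads in the 4 libraries. Read E made up 68.8% of these, and nearly all were in replicate 1. The copy's log2 difference in limma was 3.17 (SE 1.29), which exceeds the values within replicate numbers, 0.453 and -0.442. The L1_Mus1 copy at chr6:11920030-11926262, in an intron of Phf14 (ENSMUSG00000029629.10), held 6 and 19 reads in shTet1 and 7 and 15 in shTet2 (log2 difference -2.60, SE 1.12). The L1Md_T copy at chr4:62586188-62592885 held 7 and 12 against 138 and 25 reads and did not overlap. Nor did the L1Md_T copy at chr6:56190526-56197456, with 10 and 13 against 139 and 25 reads. The median read length was 75 nt in both, as in the A- or T-rich L1Md_T bin at 6500 to 7000 bp. How many of that bin's reads lay in these copies was not computed. The L1Md_T copy at chr5:88484621-88490094 held 11, 4, 123 and 5 reads, all of the 18-nt family. The other named copies with negative log2 differences had overlapping groups and an unadjusted p over 0.05 in limma. They were an L1VL1 copy at chr15:17743951-17749127 (12, 11, 16 and 15 reads, log2 difference -1.59, SE 0.92), where read G made up 72.2%, and an L1Md_F3 copy at chr2:150285434-150291154 (9, 10, 16 and 16 reads, log2 difference -1.28, SE 0.87), where read A made up 78.4%.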

How the data were processed

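Small RNA libraries (NEBNext kit, gel size selection, single-end reads of 75 bp per the methods) were trimmed by the authors with Trim Galore 0.3.3 to at least 15 nt and aligned to mm9 with Bowtie2 2.1.0, which places reads with several equal hits at random. A few listed reads in each library had 76 nt. The deposited files list reads within L1 copies, 1 per line, with no count, score or normalised value. How copies were chosen is not given in the sources used here. Reads were tallied here (Python 3.11.15, pandas 2.3.3). Groups followed the sample titles. Shares were compared by exact two-sided permutation tests. Tallies were tested with limma 3.58.1 (voom, R 4.3.3), scaled to the reads left, with Benjamini-Hochberg adjustment over every feature that reached 10 reads in 2 or more libraries. Fits were tested on simulated data. Named bins, sequences and copies were, where none passed, the 3 in each direction with the smallest unadjusted p. Further sequences were among the 5 most frequent, or were added after their values were seen. Members and lists were chosen with earlier results of these data known. Class tallies of the 2 libraries of a group were set against each other by chi-square (p = 4.63e-06 for shTet1 and 2.54e-49 for shTet2, or 0.0861 and 0.00118 with reads counted once). They were counted as separate replicates, as labelled. Alternatives included counting reads once, other scalings, a replicate block and leaving out each library.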

Additional observations from a re-analysis of the deposited data

How the results depend on the processing

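The difference in the share within 1 kb of the 5′ end, shTet2 minus shTet1, kept its sign under all alternatives tried, between -6.69 and -1.42 points, and between -6.69 and -2.55 when a library was left out. No p of a share could pass the threshold in this design, so only direction and overlap were compared for shares. The antisense difference turned to -1.70 with reads counted once, to -0.386 among reads matching the genome at every base, to -0.653 without the 18-nt family, to -0.518 as the mean over 5 length classes and to -0.0127 in the young classes. It was 0.0574 to 4.26 when a library was left out. With no copy left out, the differences of 21- to 23-nt and 24- to 32-nt reads were 0.0953 and 0.932 points. That of mean length was -0.00539 nt with no copy left out, -0.298 nt among reads of 18 to 32 nt and -1.32 to 3.92 nt when a library was left out. The choices to use exact matches and to leave out the family were made after seeing the data. The cause was not tested for any of these.

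The replicate number as a block in limma called 1 class (L1Md_F, log2 0.67, adjusted p = 0.0395), 1 bin (antisense 4000 to 4500 bp of L1Md_F, 0.98, 0.0118), both higher in shTet2, against 0 of each without it. It also called 1 copy, of L1Md_F2 at chr9:23327634-23333929 (-2.10, 0.0207, against 0.81 without the block), and 1 read sequence, a 31-nt sense read mostly in L1Md_A (-2.23, 0.0406; 10, 0, 10 and 0 reads), both higher in shTet1. Deviations from the group means of same-numbered libraries correlated over classes and bins at 0.527 and 0.428 between shTet1 and shTet2, 0.307 and 0.0674 between shScr and shTet1 and 0.591 and 0.322 between shScr and shTet2. Reads E and F also went with the number. With 2 pairs and no batch named in the labels, the numbers were not taken to pair the samples. Leaving out a library gave 0 to 7 bins (7 without shTet2 replicate 2, and 1 without shTet2 replicate 1), 0 to 1 classes, and 0 copies and sequences. The lone library left in a group is then assumed to vary like the others.

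Share differences that turned were L1Md_T at 0.199 points and L1Md_F at -0.0141 without the family, L1Md_F at -0.104 with reads counted once and L1Md_Gf at -0.00575 with no copy left out. With a library left out they were -1.63 to 0.464 for L1Md_T, -0.0748 to 0.149 for L1Md_Gf and -0.641 to 4.09 for L1Md_F. On the log2 scale, L1Md_T was 0.025 with median-of-ratios factors, 0.00075 among exact matches and 0.014 without the family. L1Md_Gf was -0.047 with all 6 libraries and -0.0498 without a filter. With reads counted once, L1Md_F was -0.044, L1_Mus1 0.027, the L1Md_T bin at 6500 to 7000 bp -0.0701 and the L1Md_F antisense bin -0.28. L1_Mus3 was 0.0069 with median-of-ratios factors and 0.0125 among exact matches. Read E was -0.0027 without a filter, and the chr10 copy -0.27 with the block. Log2 ranges with a library left out were -0.068 to 0.015 for L1Md_T, -0.16 to 0.20 for L1Md_Gf, -0.41 to 1.79 for L1Md_F, -0.39 to 0.22 for L1_Mus1, -0.32 to 0.20 for L1_Mus3, -0.20 to 2.47 for the L1Md_F bin, -2.85 to 3.40 for read E, -0.61 to 2.26 for family read 5, -1.44 to 0.024 for read B, -0.96 to 0.26 for read A, -0.076 to 3.15 for the chr10 copy and -1.60 to 0.13 for the chr2 copy. Shares in shTet1 rest on 3043 and 4027 reads, which limits classes below about 1% of reads most. TMM factors moved the median log2 difference of tested sequences from 0.67 to 0.08 and that of copies from 0.25 to 0.10, and called none of either.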
